A study of Mus musculus with 14 samples.

Results

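The mitochondrial genome is transcribed from its own circular chromosome, and its transcripts made up a large share of the triceps RNA read here. They were taken as every gene that the deposited table places on chromosome MT, which gave 37 of 52550 genes. The 37 were 13 messenger RNAs (mRNAs) for subunits of the respiratory chain and of ATP synthase, the 2 ribosomal RNAs (rRNAs) mt-Rnr1 and mt-Rnr2 of the mitochondrial ribosome, and 22 transfer RNAs (tRNAs). Counts were found for 30 of them, and 7 tRNAs had 0 counts in all 14 mice.

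The samples were triceps muscles of 14 male mice, sequenced from the 3′ end of their polyadenylated RNA with QuantSeq FWD libraries. FLExDUX4 mice carry a human DUX4 transgene that Cre recombinase switches on, and are used to model facioscapulohumeral muscular dystrophy. The labels name no Cre, no promoter and no ages, and expression of the transgene was not analysed here. The 4 groups were 3 WT and 3 FLExDUX4 mice kept without running (controls), and 4 WT and 4 FLExDUX4 littermates that had 6 weeks of voluntary wheel running (runners). Mice are numbered within each group in the order of the sample records, and the numbers link no mice between groups.

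Mitochondrial DNA is read from both strands as long precursor RNAs. In most places a tRNA lies between the mRNAs and rRNAs, and cutting the tRNAs out frees the neighbouring transcripts. Most mRNAs and both rRNAs then receive short poly(A) tails, which for several mRNAs complete the stop codon. Mature tRNAs end in CCA and carry no such tail. An oligo(dT) primed library therefore reads tailed RNA, tailed processing products and internal runs of A, and a count on a tRNA gene need not be a mature tRNA. Skeletal muscle fibres of the oxidative kind hold more mitochondria than the fast glycolytic fibres that dominate mouse triceps.

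The transcripts that carry the results below are shown first, as read from the GENCODE M21 transcripts on GRCm38. The tRNA for threonine, mt-Tt (MT:15289-15355, H-strand transcript), passed the test for running in WT mice. It begins at the base after the end of mt-Cytb (MT:14145-15288, H-strand transcript), the cytochrome b mRNA of complex III, and the proline tRNA mt-Tp (MT:15356-15422, L-strand transcript) lies directly behind it on the opposite strand. The methionine tRNA mt-Tm (MT:3845-3913, H-strand transcript) held more counts than any other tRNA gene. Capitals mark the anticodon in the tRNAs. In mt-Cytb, of which the last 60 bases are shown, the capital is the last base of the gene, a T that needs the added A residues to become a stop codon. The 1144 bases of the gene leave 1 base over after division by 3.
mt-Tt: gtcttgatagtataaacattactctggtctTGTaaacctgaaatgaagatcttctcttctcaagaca
mt-Tp: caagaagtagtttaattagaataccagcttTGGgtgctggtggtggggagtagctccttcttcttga
mt-Tm: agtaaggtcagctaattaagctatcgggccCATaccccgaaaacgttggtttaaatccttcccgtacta
mt-Cytb 3′ end: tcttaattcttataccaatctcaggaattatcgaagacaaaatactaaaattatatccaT

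Libraries held 3269357 to 6995811 gene counts, and the levels below are counts per 1000000 (CPM) of each library's total after scaling by its TMM factor. Over all mice, 0 counts on a gene allow at most 3 counts, or 0.0439 per 1000000 unscaled gene counts, as far as counting error goes. The 8 skeletal fibre markers summed to between 88404 and 147522 CPM in all 14 mice. Of 5 cardiac markers, Myl7 and Nppa had 0 counts, and the 5 together reached 5.43 CPM at most. Spike-in RNAs took 1.28% to 1.53% of all counts in WT controls, 0.963% to 1.32% in FLExDUX4 controls and 0.965% to 1.15% in runners. In whole muscle, fewer cells of a type and less RNA per cell cannot be told apart.

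Chromosome MT held between 20.5% and 39.8% of the gene counts of a mouse. WT controls 1 to 3 had 20.9%, 26.4% and 24.7%, and WT runners 1 to 4 had 30.8%, 32.7%, 26.99% and 36.6%. In FLExDUX4 controls 1 to 3 the values were 28.8%, 29.2% and 20.5%, and in FLExDUX4 runners 1 to 4 they were 32.6%, 39.8%, 33.6% and 26.6%. Every WT runner was above every WT control. The FLExDUX4 groups overlapped, since FLExDUX4 runner 4 lay below FLExDUX4 controls 1 and 2.

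A share of the total is bounded, so the same counts were set against the genes outside chromosome MT. Per 100 counts of other genes, WT controls had 31.8 ± 4.83 MT counts (SD, n = 3) and WT runners 46.98 ± 8.67 (SD, n = 4). FLExDUX4 controls had 35.8 ± 8.65 (SD, n = 3) and FLExDUX4 runners 50.3 ± 12.3 (SD, n = 4). WT controls ranged from 26.5 to 35.96, while that of WT runners was 36.96 to 57.8, again without overlap, and 25.9 to 41.2 against 36.3 to 66.1 in FLExDUX4 mice. A sum over the chosen genes is described here without a test.

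Myh7 is the myosin heavy chain of slow fibres and Myh2 that of oxidative fast fibres. Myh1 belongs to fast fibres between the oxidative and the glycolytic kind. Their joint share was higher in every WT runner than in every WT control, and the FLExDUX4 groups overlapped. Of the adult myosin counts these 3 genes took 1.15% to 1.65% in WT controls and 4.19% to 6.87% in FLExDUX4 controls. They took 5.07% to 29.1% in WT runners and 3.48% to 28.999% in FLExDUX4 runners. The part of fibre type in the MT share was not tested.

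**Figure D1:**
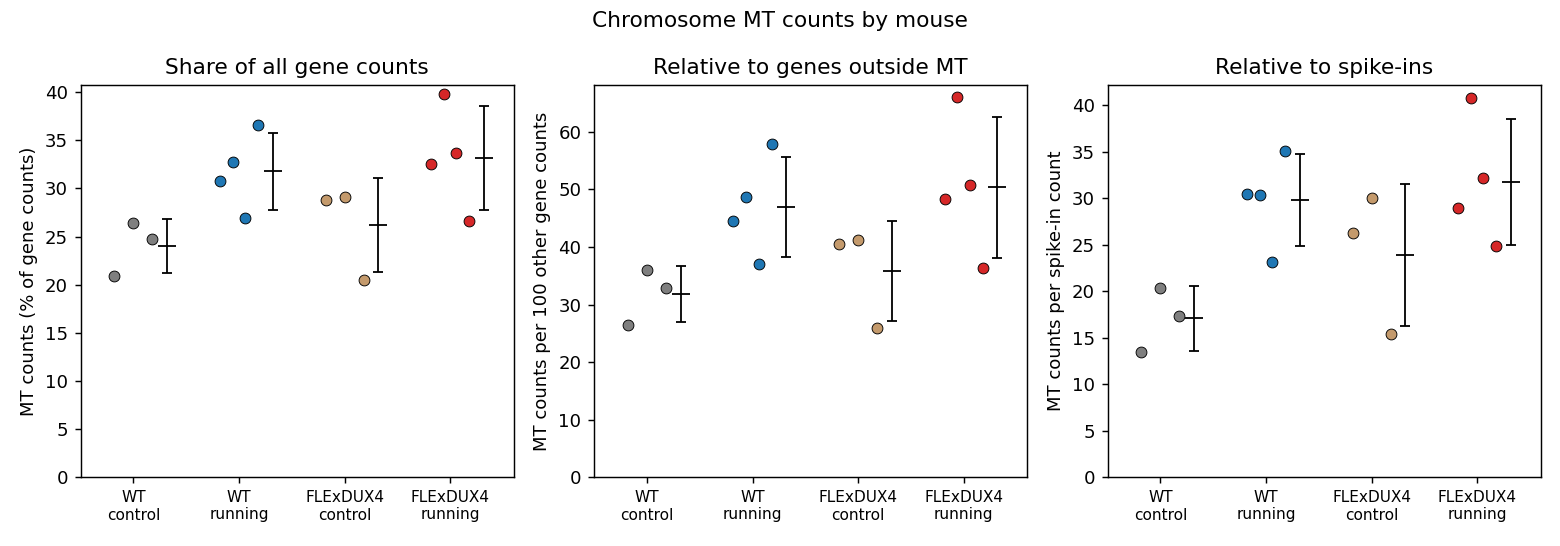
Chromosome MT counts of each mouse as a percent of gene counts (left), per 100 counts of genes outside chromosome MT (middle) and per spike-in count (right); points are mice, horizontal marks with bars are group means with SD, and every axis starts at 0. In all 3 panels the 4 WT runners lie above the 3 WT controls, and the FLExDUX4 groups overlap.

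Among the 19914291 MT counts, rRNAs made up 54.96%, mRNAs 44.7% and tRNAs 0.386%. The large-subunit rRNA mt-Rnr2 alone held 44.4%. It was followed by mt-Nd4 with 12.3% and mt-Nd1 with 11.1%, both core subunits of complex I, by the small-subunit rRNA mt-Rnr1 with 10.6%, by mt-Nd2 with 9.22% and by mt-Cytb with 8.56%. Per kilobase of gene, mt-Rnr2 held 28.1% of MT counts, mt-Nd1 11.6%, mt-Rnr1 11.1%, mt-Nd4 8.91%, mt-Nd2 8.88% and mt-Cytb 7.48%. The same ordering per kilobase put mt-Co1, the catalytic core of cytochrome c oxidase (complex IV), at 1.13% and mt-Nd5 at 0.934%. Among tRNAs the highest per kilobase were mt-Tm at 1.96% and mt-Tp at 1.36%. These libraries read the 3′ ends, so counts need not grow with gene length, and values per kilobase do not rank RNA levels. Without division by length, mt-Co1 held 1.74% of MT counts and mt-Tm 0.135%. The only L-strand mRNA, mt-Nd6, held 797 counts over all mice, or 0.00771% per kilobase. The strand setting of the read counting is not given in the sources used here, so reads from a gene and its antisense partner cannot be told apart.

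The shares of the classes overlapped between all 4 groups. mRNAs took 38.1% of MT counts in WT runner 1, the lowest mouse, and 50.8% in WT control 3, the highest. tRNAs took 0.227% in WT control 3, the lowest mouse, and 0.681% in FLExDUX4 control 3, the highest. Their share was 0.278% ± 0.0314 (SD, n = 4) in FLExDUX4 runners. The 2 rRNAs kept close proportions, with 3.79 to 4.65 mt-Rnr2 counts per mt-Rnr1 count in the 14 mice. Against mt-Nd1 the proportion was less even, from 3.14 to 5.36 mt-Rnr2 counts per mt-Nd1 count.

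A stretch of the mitochondrial genome from the end of mt-Co1 to the start of mt-Nd4 was nearly without counts, although it holds genes for core subunits of complexes I and IV and of ATP synthase. Over all 14 mice mt-Co2 had 2 counts and mt-Co3 had 3, both encoding core subunits of complex IV. The ATP synthase subunit genes mt-Atp8 and mt-Atp6 had 10 and 19 counts, and mt-Nd4l, of complex I, had 13. The tRNA genes mt-Ts1, mt-Td, mt-Tk and mt-Tg in this stretch had 0. The exceptions were mt-Nd3, of complex I, with 13482 counts and mt-Tr, the arginine tRNA, with 154.

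This stretch coincides with a nearly identical copy of the mitochondrial genome in the nuclear genome. On chromosome 1 the annotation holds 7 pseudogenes in a row, at chr1:24611535-24616197, whose exact 50-base matches run over MT:6394-11042, a span of 4649 bases. They are Gm29216, Gm28661, Gm10925, Gm28437, Gm28438, Gm10222 and Gm28439, copies of mt-Co1, mt-Co2, mt-Atp6, mt-Co3, mt-Nd3, mt-Nd4l and mt-Nd4. In 5 of the 7 the compared bases were identical, mt-Co1 and Gm29216 differed at 6 of 492 bases (98.8% identity), and mt-Nd3 and Gm28438 at 1 of 345. The 7 pseudogenes together had 305 counts, 180 of them on Gm28438.

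The single difference between mt-Nd3 (MT:9459-9806) and Gm28438 (chr1:24612775-24613119, minus strand) lies at the 5′ end, whereas these libraries read the 3′ end. Its part in the counts of mt-Nd3 was not tested. The first 60 bases of both genes follow, with the differing base in capitals. It is T3C, counted from 1 at the first base of mt-Nd3, with the mitochondrial base first, and it lies at MT position 9461.
mt-Nd3: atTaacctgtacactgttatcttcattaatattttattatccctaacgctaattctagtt
Gm28438: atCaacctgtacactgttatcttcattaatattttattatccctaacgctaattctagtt

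The 11 genes that lie wholly inside the copied stretch held 0.0687% of MT counts, and 9 of the 11 had fewer than 100 counts. The 24 genes wholly outside it held 85.9%, and mt-Co1 and mt-Nd4, which reach into it, held 14.02%. The copied part of mt-Nd4 is its 5′ part, and that of mt-Co1 is its 3′ part, the end that these libraries read. In windows of 50 bases, 100% of mt-Co2 was found in an annotated nuclear transcript without a mismatch, 99.5% of mt-Atp6, 99.9% of mt-Co3, 98.0% of mt-Nd3 and 98.8% of mt-Nd4l. For mt-Nd4 it was 62.2%, for mt-Co1 51.1%, for mt-Nd2 8.19%, for mt-Nd5 7.61% and for mt-Rnr2 1.04%, and for mt-Nd1, mt-Cytb, mt-Nd6 and mt-Rnr1 it was 0%. Only annotated transcripts could be searched. The tRNA genes and mt-Atp8 gave 0% in that search, and the chromosome 1 DNA between the pseudogenes was not compared with them.

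How reads with several alignments were counted is not given in the sources used here, and the part of the copy in the low counts was not tested. No level is therefore given for mt-Co2, mt-Atp8, mt-Atp6, mt-Co3 and mt-Nd4l, and the counts of mt-Co1, mt-Nd3 and mt-Nd4 are given with the same limit. Other nuclear copies held more counts: Gm13341, which shares 35.3% of the mt-Co2 windows, had 2408 and Gm13340, which shares 27.5% of the mt-Co1 windows, had 833, both on chromosome 2. Low counts also lay outside the copied stretch, where mt-Tn, mt-Ty and mt-Th had 0 counts, mt-Te had 18 and mt-Tw 37.

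**Figure D2:**
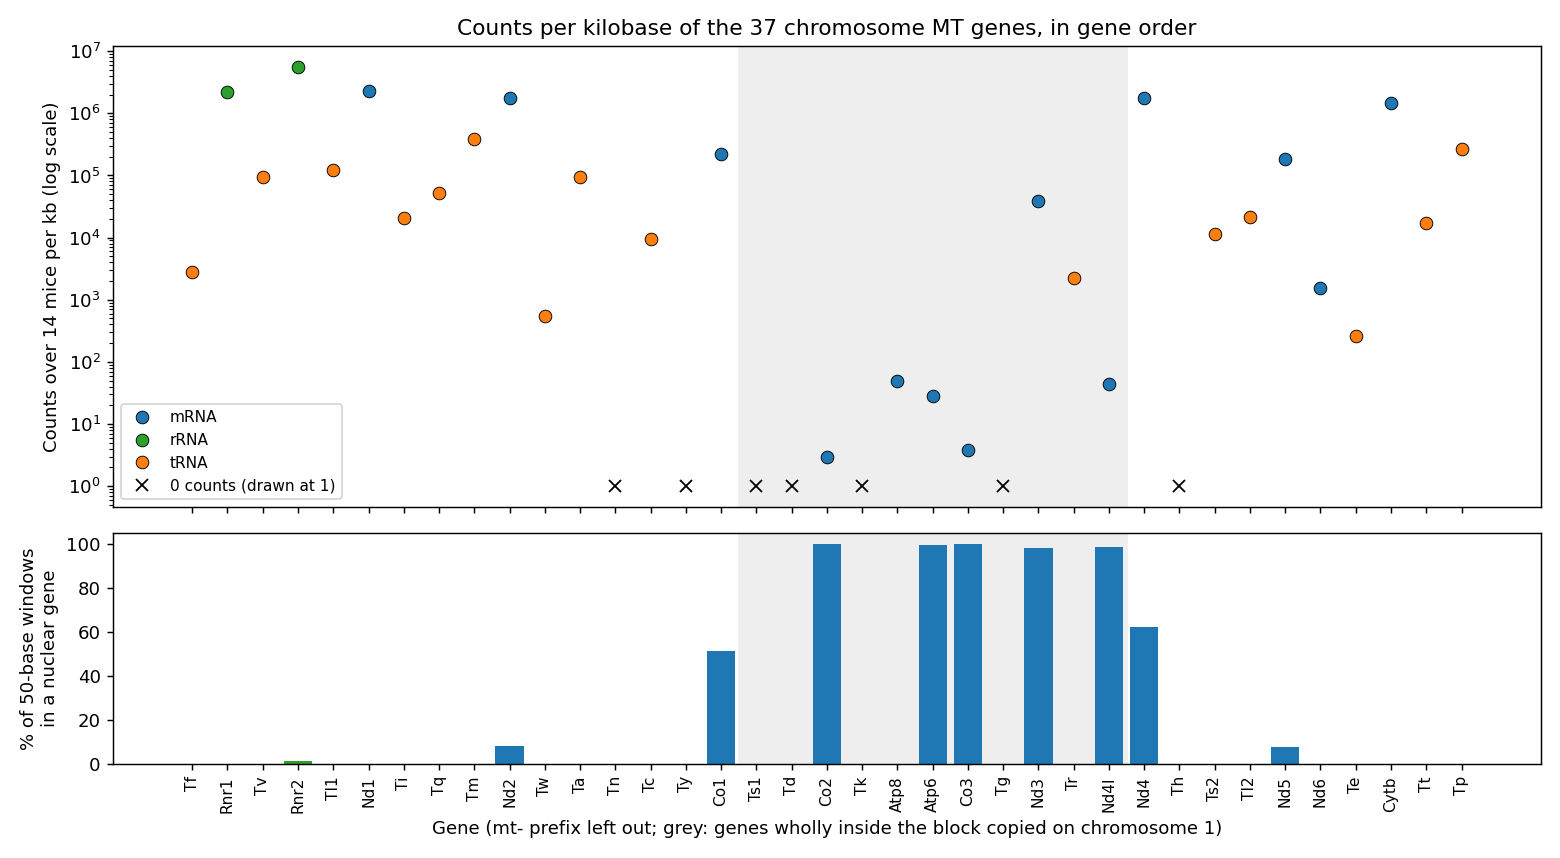
Counts per kilobase over all 14 mice on a log scale (top) and the percent of each gene's 50-base windows found without a mismatch in an annotated nuclear transcript (bottom), for the 37 genes in their order on chromosome MT; crosses stand for 0 counts and grey marks the genes wholly inside the stretch copied on chromosome 1. Inside the grey area only mt-Nd3 and mt-Tr hold more than 100 counts over all mice. Only annotated transcripts were searched, so 0% for a tRNA gene or mt-Atp8 there does not show that a nuclear copy is absent. Reads come from the 3′ end, so values per kilobase do not rank RNA levels of genes of unlike length.

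mt-Nd3 stood apart in 1 mouse. FLExDUX4 control 1 had 62 counts on it, or 16.97 CPM, whereas the other 13 mice had 568 to 1437 counts. In the same library mt-Co1 was at 5228 CPM and mt-Rnr2 at 147970 CPM. The other FLExDUX4 controls had 196 and 156 CPM of mt-Nd3, and FLExDUX4 runners averaged 267 ± 58.7 CPM (SD, n = 4). The log2 difference of runners from controls in FLExDUX4 mice was 1.11 ± 0.58 for mt-Nd3 (edgeR adjusted p = 0.807), with this mouse included.

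Running was tested per gene with edgeR's quasi-likelihood fit over all 14 mice, with TMM scaling and Benjamini-Hochberg adjustment over the 11088 genes with enough counts. Differences are log2, runners minus controls, ± SE of the fit, and a gene is called at an adjusted p under 0.05. Of the 37 genes, 23 entered the fit: 8 mRNAs, both rRNAs and 13 tRNAs. The 14 left out were the 7 genes at 0 counts and mt-Co2, mt-Co3, mt-Atp6, mt-Atp8, mt-Nd4l, mt-Tw and mt-Te.

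In WT mice, running went with less mt-Tt and with values above 0 for most other MT genes. mt-Tt was the only 1 of the 23 called, against 0.496% of all genes called and 0.0992% called lower. The same fit put 5 of the 23 and 10.7% of all genes under an unadjusted p of 0.05. Of the 23, 20 were above 0, with a median of 0.40. Over all tested genes 51.3% were above 0, with a median of 0.01. The median of the 23 was 0.19 without WT runner 4 and 0.65 without WT control 2. All 8 mRNAs (median 0.32), both rRNAs (0.50 and 0.56) and 10 of 13 tRNAs (median 0.47) had values above 0, which is a description of uncalled genes apart from mt-Tt.

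mt-Tt fell in WT runners. WT controls 1 to 3 had 47.0007, 24.6 and 33.6 CPM (224, 114 and 112 counts). WT runners 1 to 4 had 11.7, 5.14, 11.3 and 7.06 CPM (59, 29, 56 and 40 counts). Every WT runner was below every WT control, as for 4.56% of all genes tested. The log2 difference was -2.00 ± 0.41 (edgeR adjusted p = 0.0409).

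In FLExDUX4 mice the mt-Tt difference had the same sign and was not called. FLExDUX4 controls 1 to 3 had 16.7, 11.4 and 30.9 CPM, and FLExDUX4 runners 1 to 4 had 6.98, 3.76, 8.09 and 15.4 CPM. Runner 4 exceeded control 2, so the groups overlapped. The difference was -1.18 ± 0.41 (edgeR adjusted p = 0.617), and for mt-Tt it was -0.67 without FLExDUX4 control 3 and -1.67 without runner 4. The interaction, the difference between the running effects of the genotypes, was 0.82 ± 0.58 (edgeR adjusted p = 0.976), so the running effects were not shown to differ. Averaged over genotype, mt-Tt fell by 1.59 on the log2 scale (SE 0.29, edgeR adjusted p = 0.0188).

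The value of mt-Tt could also be set against its neighbours, which needs no library scaling. Per 1000 counts of mt-Cytb, the gene that ends where mt-Tt begins, WT controls had 2.76, 1.13 and 1.47 mt-Tt counts and WT runners 0.545, 0.178, 0.485 and 0.202. FLExDUX4 controls had 0.743, 0.472 and 1.76, and FLExDUX4 runners 0.232, 0.115, 0.250 and 0.679. The WT groups were again apart and the FLExDUX4 groups overlapped. These ratios use the same mt-Tt counts as the fit, so they are no separate support. The running difference of mt-Cytb in WT mice was itself above 0, which lowers the ratio in runners. The tRNA on the other side, mt-Tp, had 10.7, 12.6 and 4.60 counts per 1000 mt-Cytb counts in WT controls and 14.3, 7.43, 9.77 and 16.4 in WT runners, with overlap.

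The size of the mt-Tt difference held across scalings, but its call did not. In WT mice it was -2.04 with plain totals of all gene counts (edgeR adjusted p = 0.111), -1.88 with totals of the genes outside chromosome MT (0.0417) and -1.61 with spike-in totals (0.0171). The call in WT mice was also lost without any 1 of 9 of the 14 mice, with differences of -2.20 to -1.73. Those 9 were WT controls 1, 2 and 3, WT runners 1, 2 and 4, FLExDUX4 control 1, and FLExDUX4 runners 1 and 3.

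mt-Co1 was the mRNA with the smallest p in WT mice. WT controls 1 to 3 had 3383, 4283 and 3775 CPM, and WT runners 1 to 4 had 5172, 6195, 4566 and 6573 CPM. All WT runners exceeded all WT controls, as for 5.74% of genes. The difference was 0.56 ± 0.17 and was not called (edgeR adjusted p = 0.13). FLExDUX4 controls 1 to 3 had 5228, 4988 and 3371 CPM, and FLExDUX4 runners 1 to 4 had 6241, 7353, 6019 and 4501 CPM. Those groups overlapped, with a difference of 0.41 ± 0.17 (edgeR adjusted p = 0.708).

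Averaged over genotype, mt-Co1 rose and mt-Tt fell, which made 2 of 23 genes called against 0.857% of all genes (0.307% called lower). An unadjusted p under 0.05 was found for 8 of the 23 and 12% of all genes. All 23 overlapped between the 8 runners and 6 controls, where 0.171% of genes were apart upward and 0.198% downward. For mt-Co1 the averaged difference was 0.49 ± 0.12 (edgeR adjusted p = 0.0402; 0.55% of all genes were called higher). That call was lost with plain totals of all gene counts (0.44, adjusted p = 0.0573) and without any 1 of 10 mice, over which the difference stayed between 0.40 and 0.54, with adjusted p-values up to 0.149. These were all WT controls, FLExDUX4 controls 1 and 3, WT runners 2 and 4, and FLExDUX4 runners 1, 2 and 3. The mt-Tt call was lost with those totals (-1.64, adjusted p = 0.0573), without FLExDUX4 control 1 and without WT runner 4.

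Beside mt-Co1, all other tested mRNAs had averaged running values above 0, and none of them was called. The median of the 8 mRNAs was 0.38, and they had 8 of 8 values above 0 under each of the 5 scalings tried. For mt-Cytb, WT controls 1 to 3 had 17019, 21814 and 22910 CPM and WT runners 1 to 4 had 21389, 28923, 23371 and 35013 CPM. FLExDUX4 controls had 22463, 24235 and 17548 CPM, and FLExDUX4 runners 30139, 32676, 32360 and 22621 CPM. In each genotype 1 or more runners lay within the range of the controls. The averaged difference was 0.43 ± 0.13 (edgeR adjusted p = 0.0857).

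mt-Nd1 was the only MT gene whose FLExDUX4 runners and controls did not overlap. FLExDUX4 controls 1 to 3 had 27706, 29678 and 23984 CPM, and FLExDUX4 runners 1 to 4 had 39545, 40394, 41049 and 29900 CPM. All runners were above all controls, as for 3.72% of genes (3.45% were apart downward), and runner 4 lay close to control 2. The difference was 0.48 ± 0.17 and was not called (edgeR adjusted p = 0.601). WT controls had 24346, 29956 and 30307 CPM and WT runners 26429, 34620, 33825 and 43297 CPM, where WT runner 1 was below controls 2 and 3. The averaged difference was 0.38 ± 0.12 (edgeR adjusted p = 0.111).

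Both rRNAs had values above 0 in both genotypes, and neither was called. For mt-Rnr2, WT controls 1 to 3 had 81887, 116883 and 96091 CPM and WT runners 1 to 4 had 141556, 165645, 109802 and 163737 CPM. FLExDUX4 controls had 147970, 133561 and 75387 CPM and FLExDUX4 runners 146961, 211560, 144259 and 109752 CPM. WT runner 3 lay within the WT controls, and in FLExDUX4 mice the groups overlapped. The averaged difference of mt-Rnr2 was 0.46 ± 0.16 (edgeR adjusted p = 0.153).

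The small-subunit rRNA mt-Rnr1 gave similar values. WT controls had 21580, 26868 and 22773 CPM and WT runners 34972, 40428, 23803 and 35240 CPM. FLExDUX4 controls had 37335, 29954 and 17065 CPM and FLExDUX4 runners 36393, 55619, 34889 and 25419 CPM. As for mt-Rnr2, FLExDUX4 runner 2 was highest and FLExDUX4 control 3 lowest of the 14 mice. Its averaged difference was 0.47 ± 0.19 (edgeR adjusted p = 0.297).

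**Figure D3:**
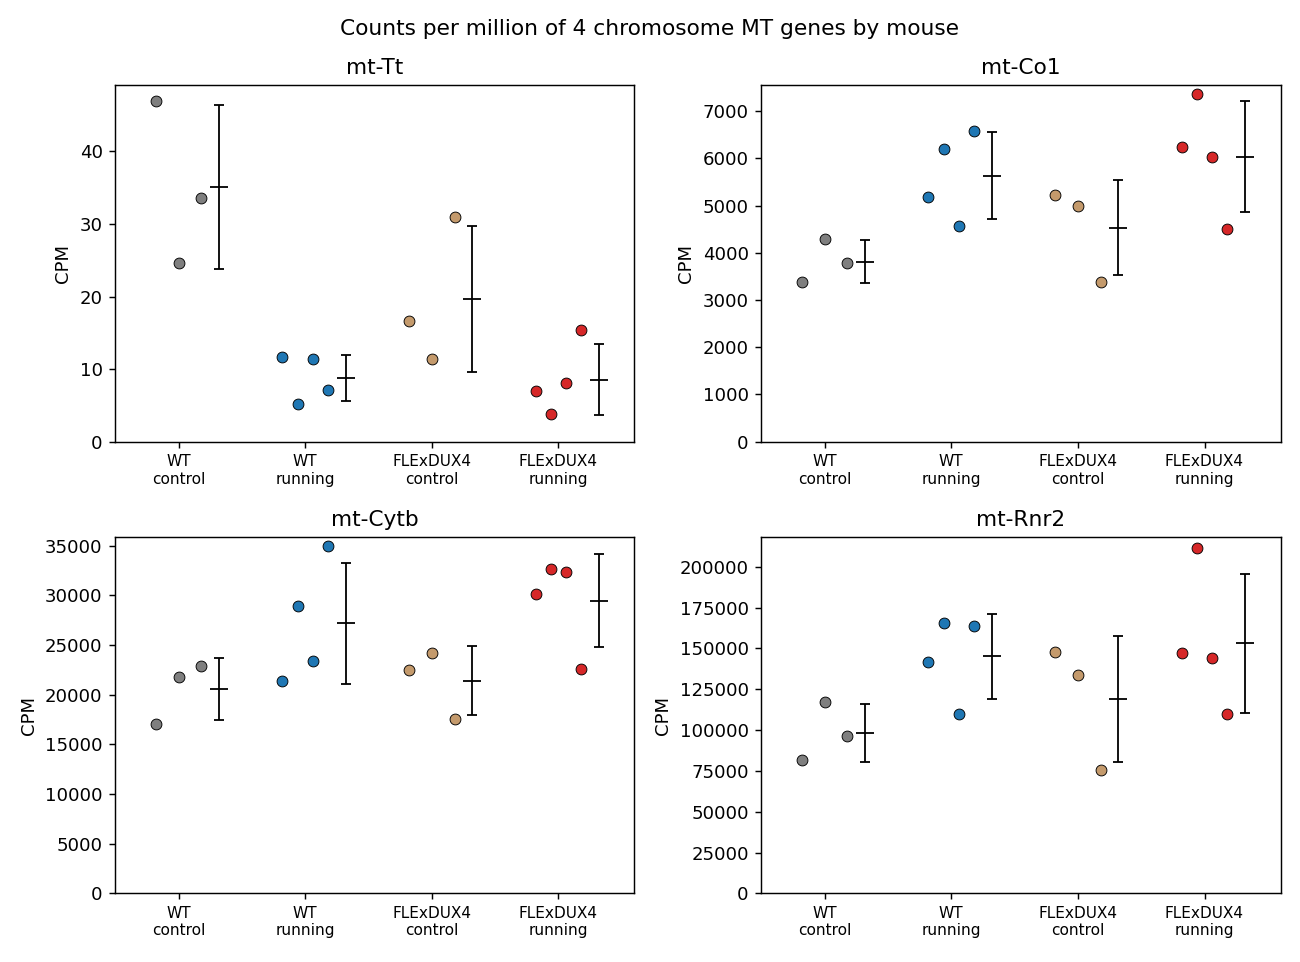
CPM of mt-Tt, mt-Co1, mt-Cytb and mt-Rnr2 in each mouse; points are mice, horizontal marks with bars are group means with SD, and each axis starts at 0. WT runners lie below WT controls for mt-Tt and above them for mt-Co1, and FLExDUX4 runners and controls overlap in all 4 panels.

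Under the authors' deposited table, the WT comparison had mt-Co1 at -0.51 for controls over runners (adjusted p = 0.0220) and mt-Tt at 1.33 with no adjusted p. In the comparison of FLExDUX4 runners with WT controls, the authors' deposited table gave mt-Co1 0.61 (adjusted p = 0.0166) and mt-Tt -1.33 (adjusted p = 0.000275). For FLExDUX4 controls over FLExDUX4 runners, the authors' deposited table gave mt-Co1 -0.37 (adjusted p = 0.408) and mt-Tt 0.78 (adjusted p = 0.248). Of the genes with an adjusted p in the authors' deposited table, 9.9% passed 0.05 in the first comparison, 2.19% in the second and 0.0531% in the third. The first and second share the 3 WT controls.

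In FLExDUX4 mice, running went with opposite signs in the mRNAs and the tRNAs, and 0 of the 23 genes were called. Over all genes 0% were called in this comparison as well, with 6.64% under an unadjusted p of 0.05. Of all tested genes 51.0% were above 0. Of 8 mRNAs, 7 were above 0 (median 0.41). Of 13 tRNAs, 12 were below 0 (median -0.50), and the exception was the valine tRNA mt-Tv at 0.05. Under the other scalings 11 to 13 of the 13 tRNAs were below 0 in FLExDUX4 mice, and in WT mice 10 to 12 were above 0.

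The tRNA counts behind these medians varied several-fold within groups. For mt-Tm, WT controls 1 to 3 had 287, 496 and 207 CPM and WT runners 1 to 4 had 451, 283, 378 and 736 CPM. FLExDUX4 controls had 288, 524 and 410 CPM and FLExDUX4 runners 343, 422, 300 and 272 CPM. For mt-Tp, WT controls had 181.5, 275 and 105.3 CPM, WT runners 307, 215, 228 and 576, FLExDUX4 controls 183, 430 and 262, and FLExDUX4 runners 271, 318, 183 and 129. All 4 groups overlapped for both genes. WT runner 4 was the highest and WT control 3 the lowest of the 14 mice for each of them.

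The same mice stood at the ends for other tRNAs. WT runner 4 had the highest CPM of 6 of the 13 tested tRNAs and WT runner 1 that of 4. WT control 3 had the lowest CPM of 7. The serine tRNA mt-Ts2 had 9.23, 9.05 and 6.00 CPM in WT controls, 17.8, 7.79, 5.87 and 21.5 in WT runners, 1.92, 14.4 and 13.3 in FLExDUX4 controls, and 6.01, 9.13, 9.59 and 3.70 in FLExDUX4 runners. WT runners 1 and 4 were high, and FLExDUX4 control 1 was low.

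Fitted gene by gene, the difference in running effect between genotypes was below 0 for 12 of 13 tRNAs (median -0.96), and none was called. Over all tested genes 49.3% were above 0, and the tRNAs as a class were not tested. All 13 were read in the same mice, so they are not independent of each other. In this interaction 0% of all genes were called, with 4.85% of genes and 1 MT gene, mt-Nd6, under an unadjusted p of 0.05 in edgeR. The interaction was -0.77 ± 0.53 for mt-Tm (edgeR adjusted p = 0.976), -1.19 ± 0.68 for mt-Tp (0.962) and -1.24 ± 0.78 for mt-Ts2 (0.976). It ran from -1.19 without WT control 2 to -0.45 without WT runner 4 for mt-Tm, and from -1.58 to -0.79 without the same mice for mt-Tp. The exception above 0 was mt-Tt. For the mRNAs the interaction was near 0, with a median of 0.05, except under spike-in totals, where it was -0.27.

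mt-Nd6, the complex I subunit encoded on the other strand, had the interaction furthest from 0 among the mRNAs. WT controls had 10.5, 5.39 and 5.70 CPM and WT runners 30.0, 7.79, 8.91 and 11.5 CPM. FLExDUX4 controls had 10.4, 14.2 and 13.99 CPM and FLExDUX4 runners 6.01, 16.6, 8.99 and 10.1 CPM. WT runner 1 was far above the other mice, and the rest overlapped. The interaction was -1.32 ± 0.58 (edgeR adjusted p = 0.955). The last bases of mt-Nd6 lie opposite mt-Nd5, with 14 shared positions, and its counts are few.

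**Figure D4:**
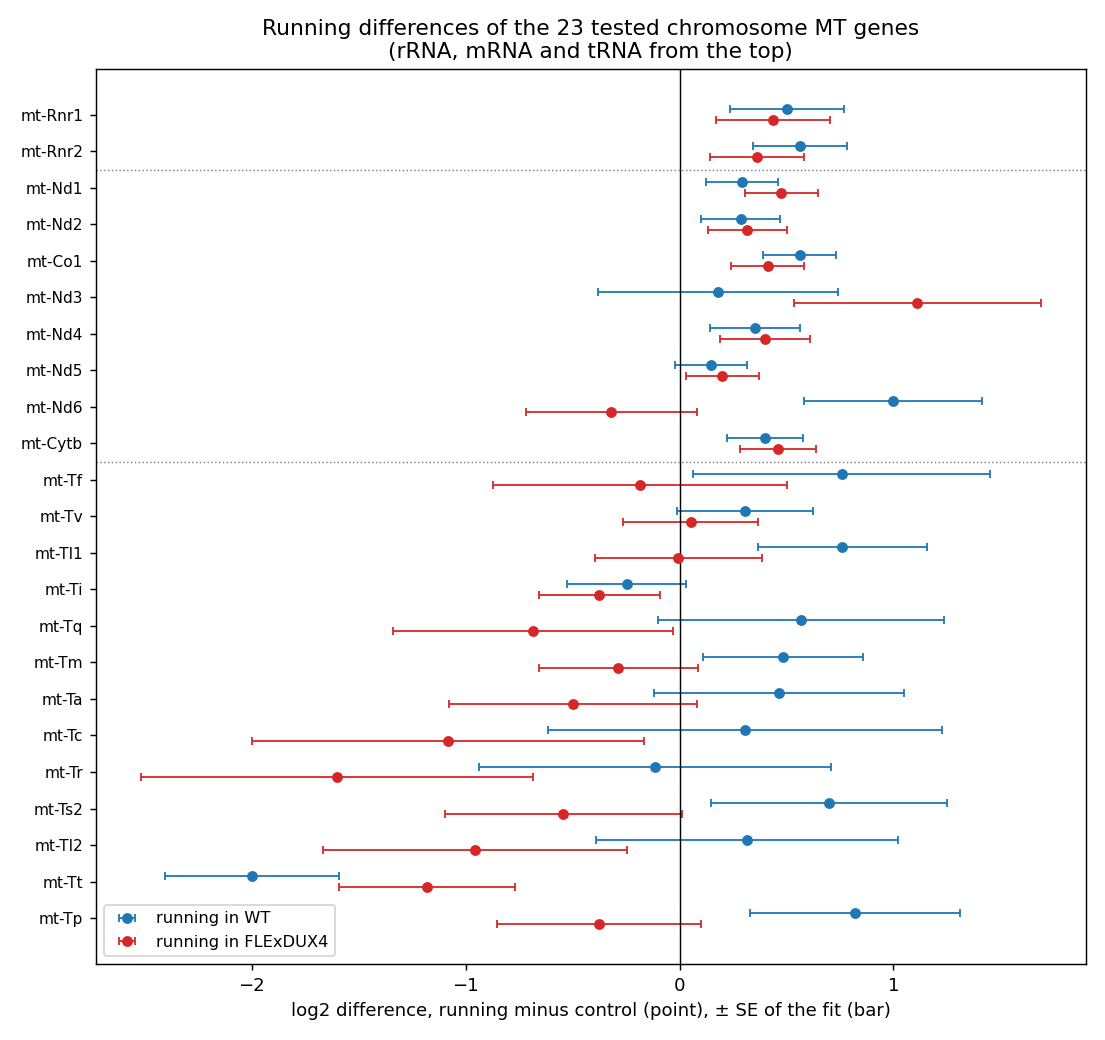
log2 difference of runners from controls for the 23 tested MT genes, in WT mice (blue) and FLExDUX4 mice (red); points are fitted values and bars are ± 1 SE of the fit. The mRNAs other than mt-Nd6 and both rRNAs lie to the right of 0 in both genotypes, most tRNAs lie to the right in WT and to the left in FLExDUX4 mice, and mt-Tt lies to the left in both.

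Genotype had no called MT gene, in controls, in runners or averaged over running, and the groups overlapped for all 23 genes in each comparison. Among all genes, 5.93% were apart upward and 5.47% downward in controls, 1.36% and 1.15% in runners, and 0.0361% and 0.0631% when averaged. In each of these comparisons 0% of the 11088 genes were called, with 5% in controls, 3.16% in runners and 3.81% on average under an unadjusted p of 0.05. In controls, FLExDUX4 minus WT, the median was 0.06 for mRNAs and 0.31 for tRNAs, with 10 of 13 tRNAs above 0. In runners it was 0.11 for mRNAs and -0.56 for tRNAs, with 12 of 13 tRNAs below 0. Of all tested genes 50.3% were above 0 in controls and 48.7% in runners. The mt-Tt values were -0.81 ± 0.42 in controls (edgeR adjusted p = 0.972) and 0.01 ± 0.40 in runners (adjusted p = 1).

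In runners and averaged over running, the smallest p belonged to tRNA genes with few counts. mt-Tr had 27, 3, 21 and 9 counts in WT runners and 2, 1, 7 and 2 in FLExDUX4 runners, a difference of -2.03 ± 0.87 in runners (edgeR adjusted p = 1). In WT controls it had 9, 29 and 4 counts and in FLExDUX4 controls 1, 7 and 32. The isoleucine tRNA mt-Ti had 27.9, 23.1 and 27.3 CPM in WT controls, 28.8, 18.96, 24.7 and 15.5 in WT runners, 11.2, 20.6 and 27.1 in FLExDUX4 controls, and 8.72, 13.96, 21.6 and 17.6 in FLExDUX4 runners. The groups overlapped, and the averaged genotype difference was -0.45 ± 0.20 (edgeR adjusted p = 0.998). The leucine tRNA mt-Tl2 ran from 6.26 to 49.4 CPM over the 14 mice, with a difference of -0.93 ± 0.67 in runners (edgeR adjusted p = 1), or -0.39 without WT runner 1.

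The genes that serve the mitochondrial genome lie in the nucleus, and none of those listed was called for running. Of the 7 tested genes of mitochondrial transcription, 6 were above 0 in WT mice and 0 were called. Polrmt, the mitochondrial RNA polymerase, averaged 9.06 ± 3.46 CPM (SD, n = 3) without running and 12.5 ± 2.34 CPM (SD, n = 4) with it in WT mice, a difference of 0.48 ± 0.34 (edgeR adjusted p = 0.689). Of 22 tested genes for cleavage, tailing and turnover of mitochondrial RNA, 15 were above 0 and 0 called in WT mice. Tbrg4, an RNA-binding protein of mitochondria, came nearest, with 12.01 ± 1.59 CPM in WT controls, 22.1 ± 2.54 in WT runners and a difference of 0.88 ± 0.25 (edgeR adjusted p = 0.0888). In FLExDUX4 mice Tbrg4 averaged 17.9 ± 2.51 CPM (SD, n = 3) without running and 13.99 ± 2.01 CPM (SD, n = 4) with it, a difference of -0.36 ± 0.24 (edgeR adjusted p = 0.84). The interaction was -1.25 ± 0.35 (edgeR adjusted p = 0.779).

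The other lists of mitochondrial gene expression were split about evenly. In WT mice 12 of 19 genes for DNA replication and maintenance, 9 of 19 for rRNA and tRNA modification and 11 of 22 tRNA synthetases and partners were above 0, with 0 called in each. The values averaged over genotype were 10 of 19, 7 of 19 and 12 of 22 above 0, again with 0 called. Tars2, which charges mt-Tt with threonine, had an averaged difference of 0.47 ± 0.27 (edgeR adjusted p = 0.496).

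Nuclear subunits of the complexes that also hold MT-encoded subunits were above 0 in WT runners, and some rose. All 36 tested subunits of complex I, all 9 of complex III, all 12 of complex IV and 14 of 15 of ATP synthase had values above 0 in WT mice, where 51.3% of all tested genes did. Called higher were 0, 2, 4 and 2 of them, against 0.397% of all genes called higher. Cox7a1, the muscle isoform of a complex IV subunit, averaged 315 ± 20.4 CPM (SD, n = 3) without running and 563 ± 151 CPM (n = 4) with it in WT mice, and rose by 0.84 ± 0.18 (edgeR adjusted p = 0.0384). Atp5g1, which encodes subunit c of ATP synthase, averaged 168 ± 8.20 CPM and 300 ± 64.7 CPM and rose by 0.84 ± 0.18 (edgeR adjusted p = 0.0288). The complex III genes Cyc1 and Uqcrq rose by 0.66 and 0.77. None of the 8 calls held without WT control 1, 2 or 3 or without WT runner 1 or 4. Over the 14 fits that left out 1 mouse, edgeR adjusted p ran from 0.00408 to 0.182 for Cox7a1, called in 7 fits, and from 0.00437 to 0.182 for Atp5g1, called in 9. Cyc1 and Uqcrq were called in 4 fits each. The differences of these 4 genes stayed above 0, at 0.55 or higher.

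In FLExDUX4 mice 34 of 36, 9 of 9, 12 of 12 and 15 of 15 of these subunits were above 0 and 0 were called. Averaged over genotype, 36 of 36, 9 of 9, 12 of 12 and 15 of 15 were above 0. Called higher in that average were 2, 1, 6 and 3 of them, against 0.55% of all genes called higher. How these averaged calls fare without single mice was not examined. Complex II, which has no MT-encoded subunit, had 4 of 4 above 0 in WT mice and 0 called, with a median of 0.49. The medians in WT mice were 0.38 for complex I, 0.53 for complex III, 0.59 for complex IV and 0.48 for ATP synthase, beside 0.32 for the 8 MT mRNAs. Those 8 were mt-Co1, mt-Cytb and mRNAs of complex I, with none of ATP synthase, so the sets are unlike.

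Markers of other cells were measured in the same libraries. The 6 endothelial markers summed to 72.3 to 85.1 CPM in WT controls, 101 to 104 in FLExDUX4 controls, 124 to 202 in WT runners and 83.6 to 165 in FLExDUX4 runners. Among WT mice 1 of the 5 tested, Kdr, was called higher, against 0.397% of all genes called higher. Kdr was not called without WT control 1, 2 or 3 or WT runner 1 or 4, and was called in 5 of the 14 fits that left out 1 mouse. The 5 red blood cell genes summed to 440 to 952 CPM in WT controls, against 1132 to 1836 CPM among WT runners, with 0 called. Adipocyte markers, with 1 of 4 tested above 0 in WT mice, summed to 119 to 144 CPM in WT controls and 154 to 195 in WT runners. Smooth muscle markers, 3 of 3 above 0, summed to 22.0 to 32.9 and 34.2 to 39.3 CPM. Macrophage (3 of 6 above 0) and fibroblast markers (2 of 5) had overlapping sums in WT mice. In these further lists 0 were called. The 8 skeletal fibre markers, among them the fast fibre genes Myh4, Tnnt3, Tnnc2 and Atp2a1, were all below 0 in WT mice, with 0 called. They do not stand for the RNA of all fibres. The 13 genes of slow and oxidative fibres were all above 0 in WT mice, with a median of 2.94 and 0 called. The part of these in the MT results was not tested.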

How the data were processed

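QuantSeq 3′ FWD libraries from 14 triceps were analysed from the read counts per gene that the authors deposited, raw and not normalized. Per the submitters' processing notes, the tools were STAR 2.5.3a, featureCounts 1.6.2, cutadapt 1.16, FastQC 0.11.7, DESeq2 and Subread, and both GRCh38 and GRCm38 are named as builds. The authors also deposited log2 fold changes and adjusted p-values for pairs of groups, which are quoted only where named. The 99 spike-in rows were set aside.

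edgeR 4.0.16 (R 4.3.3) fitted 1 mean per group in a robust quasi-likelihood model, after filterByExpr (minimum count 10) and with TMM factors. The common biological coefficient of variation was 0.288. The fit was also run on counts simulated from its own model, which cannot show how it behaves where real mice depart from that model. P-values of the fit judge a difference between groups against the spread between mice. Alternatives were DESeq2 1.42.0, limma-voom 3.58.1, RLE factors, 4 other library sizes, 2 other count filters, a fit of just the 2 groups of a comparison, and leaving out single mice. MT transcripts were matched in windows of 50 bases to all other GENCODE M21 transcripts. Values by mouse are given for called genes, the up to 4 with the smallest p per comparison and 5 set genes. Members and lists were chosen with earlier results of these data known. Floors and limits of 0 counts cover counting error only.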

Additional observations from a re-analysis of the deposited data

Results flagged for a closer look

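In groups of 4 mice, 1 value lay far from the other 3 in 5 of 54 groups examined (23 tested MT genes and 4 shares, in each runner group; by Dixon's critical value), where chance gives about 1 in 20. mt-Nd1 was low in FLExDUX4 runner 4, at 29900 CPM. mt-Nd6 was high in WT runner 1, at 30.0 CPM. mt-Tl1, the leucine tRNA between mt-Rnr2 and mt-Nd1, was high in WT runner 4, at 272 CPM, and so was mt-Tv, between the rRNAs, at 169 CPM. mt-Tr was high in FLExDUX4 runner 3, at 2.10 CPM, which is 7 counts. The causes were not tested.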

How the results depend on the processing

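No called difference changed sign under the alternatives tried. Of the members' calls, mt-Tt in WT mice and mt-Tt and mt-Co1 averaged over genotype were lost with plain totals of all gene counts. Counts of genes called moved as follows, the edgeR counts being 55 for running in WT, 0 in FLExDUX4 and 95 averaged. DESeq2 called 196 genes for running in WT, 273 averaged (4 MT genes), 3 for genotype in controls and 1 for genotype averaged. limma-voom called 23 in WT. Totals of all gene counts gave 13 in WT (0 MT genes) and 50 averaged (0 MT genes). Totals outside chromosome MT gave 199 averaged, 181 of them higher (4 MT genes). Spike-in totals gave 604 in WT, 602 of them higher (5 MT genes), 430 averaged, 419 of them higher (7 MT genes), 2 for genotype in controls and 1 for the interaction. They moved the median of all genes to 0.37 in WT, 0.21 averaged, 0.31 for genotype in controls, 0.14 for genotype averaged and -0.32 for the interaction, and totals outside chromosome MT moved it to 0.12 in WT and 0.11 averaged. Without a count filter there were 217 in WT (3 MT genes), 24 in FLExDUX4 (3 MT genes), 291 averaged (5 MT genes), 12, 2 and 8 for genotype in controls, in runners and averaged, and 11 for the interaction. Fits of only the groups compared called 6 for running in FLExDUX4 and 23 for genotype in controls. The cause was not tested.

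Per 100 counts of other genes, WT mice had 31.8 MT counts without running and 46.98 with it, and FLExDUX4 mice 35.8 and 50.3. The median of the 13 tRNAs averaged over genotype was -0.02 with TMM, -0.09 with all counts, 0.09 with counts outside chromosome MT and 0.20 with spike-ins.

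Leaving out single mice gave 0 to 198 genes called in WT (0 to 2 MT genes), 17 to 285 averaged (0 to 4 MT genes), 0 to 2 in FLExDUX4, 0 to 3 for genotype in controls, 0 to 2 for genotype averaged, 0 to 1 for the interaction and 0 for genotype in runners. The averaged differences of mt-Cytb and mt-Nd1 became called without 3 and 2 of the mice (WT running 1 and FLExDUX4 running 4 for both, WT running 3 for mt-Cytb), and mt-Co1 in WT without WT running 3. No paired analysis was possible because the labels give each mouse an animal number and no number is shared between groups.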

Other observations

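mt-Tt was lower where mt-Rnr2 was higher among the runners, a relation chosen after its values were seen, so its p-values are no independent test. In all relations below, WT and FLExDUX4 mice were pooled with no term for genotype. A difference between genotypes can therefore enter them. Among the 8 runners, log2 CPM of mt-Tt and mt-Rnr2 had Pearson r = -0.924 (exact permutation p = 0.00117, adjusted p = 0.0171 over 44 relations) and Spearman rho = -0.952 (exact permutation p = 0.00114, adjusted p = 0.0244). Without the 2 runners farthest from the median of mt-Rnr2, r was -0.780. Among the 6 controls r was -0.842 (exact permutation p = 0.0417, adjusted p = 0.141) and rho -0.771 (exact permutation p = 0.103, adjusted p = 0.316), and r was -0.959 without the 2 farthest. Neither coefficient passed the adjustment among controls.

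Both genes of a relation share the library scaling of each mouse, and mt-Rnr2 is a large part of each library. Per 1000000 counts outside chromosome MT, r was -0.813 in runners (exact permutation p = 0.0156, adjusted p = 0.0815) and -0.904 in controls (exact permutation p = 0.0208, adjusted p = 0.0917), so the relation did not pass the adjustment on that scale. With CPM, mt-Co1 had r = 0.951 with mt-Rnr2 in runners (exact permutation p = 0.000322, adjusted p = 0.0142) and 0.990 in controls (exact permutation p = 0.00278, adjusted p = 0.0204). It was not alone. By r with CPM, mt-Rnr1 (0.977 in runners, 0.972 in controls) and mt-Nd5 (0.896 and 0.937) also passed the adjustment. So did mt-Nd2 in runners only (0.833). Per 1000000 counts outside chromosome MT, r of mt-Co1 was 0.961 in runners (exact permutation p = 0.000893, adjusted p = 0.0204) and 0.983 in controls (exact permutation p = 0.00833, adjusted p = 0.0611). Of the 22 tested MT genes other than mt-Rnr2, 3 had a negative r in runners and 11 in controls with CPM. Among these, mt-Ti also passed the adjustment in controls by r, at -0.825 (exact permutation p = 0.00972, adjusted p = 0.0475; -0.968 without the 2 farthest). Its rho was -0.829 (exact permutation p = 0.0583, adjusted p = 0.197), and on the other scale its r was -0.775 (exact permutation p = 0.0139, adjusted p = 0.0815).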
